A study of Rattus norvegicus with 30 samples.

Results

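The comparison described here sets the kidney of 5 wk old rats raised on a tryptophan-deficient diet against the kidney of 1 wk old rats. Its members are the 5 arrays labelled as tryptophan-deficient 5 wk kidney and the 5 arrays labelled as 1 wk kidney, 10 of the 30 arrays of the series, which also covers the lung. All animals were wild-type Sprague-Dawley rats and whole kidney was taken. The 1 wk rats were 7 days old on a normal diet, and the deficient rats were 35 days old and received the deficient diet from birth to 4 wk of age. Their diet during the last week is not given in the labels. A further 5 arrays from 35 day old rats on a normal diet, called control, are given beside the comparison as the level of normal age mates. The series' design text calls the animals mice, while its title and every sample label name the rat. The study asks how gene expression differs between fast and slowly growing animals and how earlier slowing of growth affects it. The deficient and the 1 wk rats differ in both age and diet, and these cannot be told apart in this comparison alone.

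Tryptophan is an essential amino acid, and young animals that lack it grow slowly. In the rat the formation of new nephrons ends in the days after birth, and the tubules then acquire their transporters, brush border and oxidative enzymes during the weeks around weaning. Over the same weeks cell division in the organ declines, the loose embryonic stroma thins out, and fetal growth genes, many of them imprinted, are turned down.

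Each array gave 1 signal intensity per probe set, already scaled by the authors. The median signal was 179 to 192 on the 1 wk kidney arrays, 153 to 171 on the deficient arrays and 148 to 156 on the control arrays. Differences are given on the log2(signal + 16) scale, with the standard error (SE) of the fit and n = 5 arrays per group throughout, and folds are ratios of signal + 16. Where a group is dim the added 16 sets the size of a difference. A pseudocount of 64 gave -1.74 for Agtr2, -1.64 for Cacna1g, -1.61 for Camk1g, 1.14 for Slco1a1 and -0.93 for Urah against 1 wk, each over 1.5 times smaller than printed below. A gene is called where its limma p-value, adjusted over all 10910 genes tested by the Benjamini-Hochberg method, is under 0.05, and only called genes are said to have risen or fallen. The labels name the arrays of a group as biological replicates, without litters, so the p-values measure the spread between these samples. In whole kidney, fewer cells of a type and less RNA per cell cannot be told apart. Kidney markers were high in both groups. Umod, made by the thick ascending limb, was 9573 ± 389 (SD) in 1 wk kidney and 16091 ± 1220.2 in deficient kidney. Transcripts that mark hepatocytes, a cell type of another organ, were present at 1 wk, and their source was not measured. The 14 tested hepatocyte markers averaged 10.06, 8.53, 11.80, 8.07 and 8.16 on the 5 arrays of 1 wk kidney on the log2 scale. The same markers averaged 7.37, 7.14, 7.82, 7.58 and 7.04 on the deficient arrays. Arrays 1 and 3 of 1 wk kidney and arrays 3 and 4 of deficient kidney were the highest of their groups, so results were also computed without either pair.

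Between 1 wk and deficient kidney 7162 genes were called, which is 65.6% of those tested. The 3215 genes that rose were 29.5% and the 3947 that fell were 36.2%. A change of at least 2-fold was called upward for 482 genes (4.42%) and downward for 565 (5.18%). The signals of the 5 deficient and the 5 1 wk arrays did not overlap for 5605 genes (51.4%), and 323 further genes (2.96%) had an unadjusted p under 0.05. With each array centred on its median the median difference of all genes moved from -0.04 to 0.13, and the share of called genes that fell moved from 55.1% to 35.0%, so directions of small differences depend on the scaling. Against control kidney, 2373 genes (21.8%) were called, 1525 (14%) higher and 848 (7.77%) lower in deficient kidney. By at least 2-fold, 63 (0.577%) were higher and 60 (0.55%) lower, and 1555 (14.3%) did not overlap. A further 1325 (12.1%) had an unadjusted p under 0.05. With median centring the share lower in deficient kidney was 70.8%, against 35.7% as deposited. Between 1 wk and control kidney 7846 genes (71.9%) were called, 3384 (31%) higher and 4462 (40.9%) lower in control, and 6488 (59.5%) did not overlap. Of the called genes 56.9% fell, or 33.3% with median centring, and 193 others (1.77%) had an unadjusted p under 0.05. The 3 comparisons share arrays, so their values are set side by side below.

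Of 702 genes (6.43% of those tested) that were called and at least 2-fold higher in control than in 1 wk kidney, 334 (47.6%) had a 95% interval of deficient minus control within 0.5 of 0, which is called the age-mate level here. No adult kidney was measured. Of the 1014 genes (9.29%) at least 2-fold lower in control, 295 (29.1%) did. A stricter rule, called the young level, is not a mirror of the first and its counts cannot be set against those above. It asks for a call against control, an interval of deficient minus 1 wk within 1 of 0, and a difference from 1 wk of at most 25% of the normal one. This held for 9 genes that were higher in control (1.28%) and 21 that were lower in control (2.07%).

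**Figure D1:**
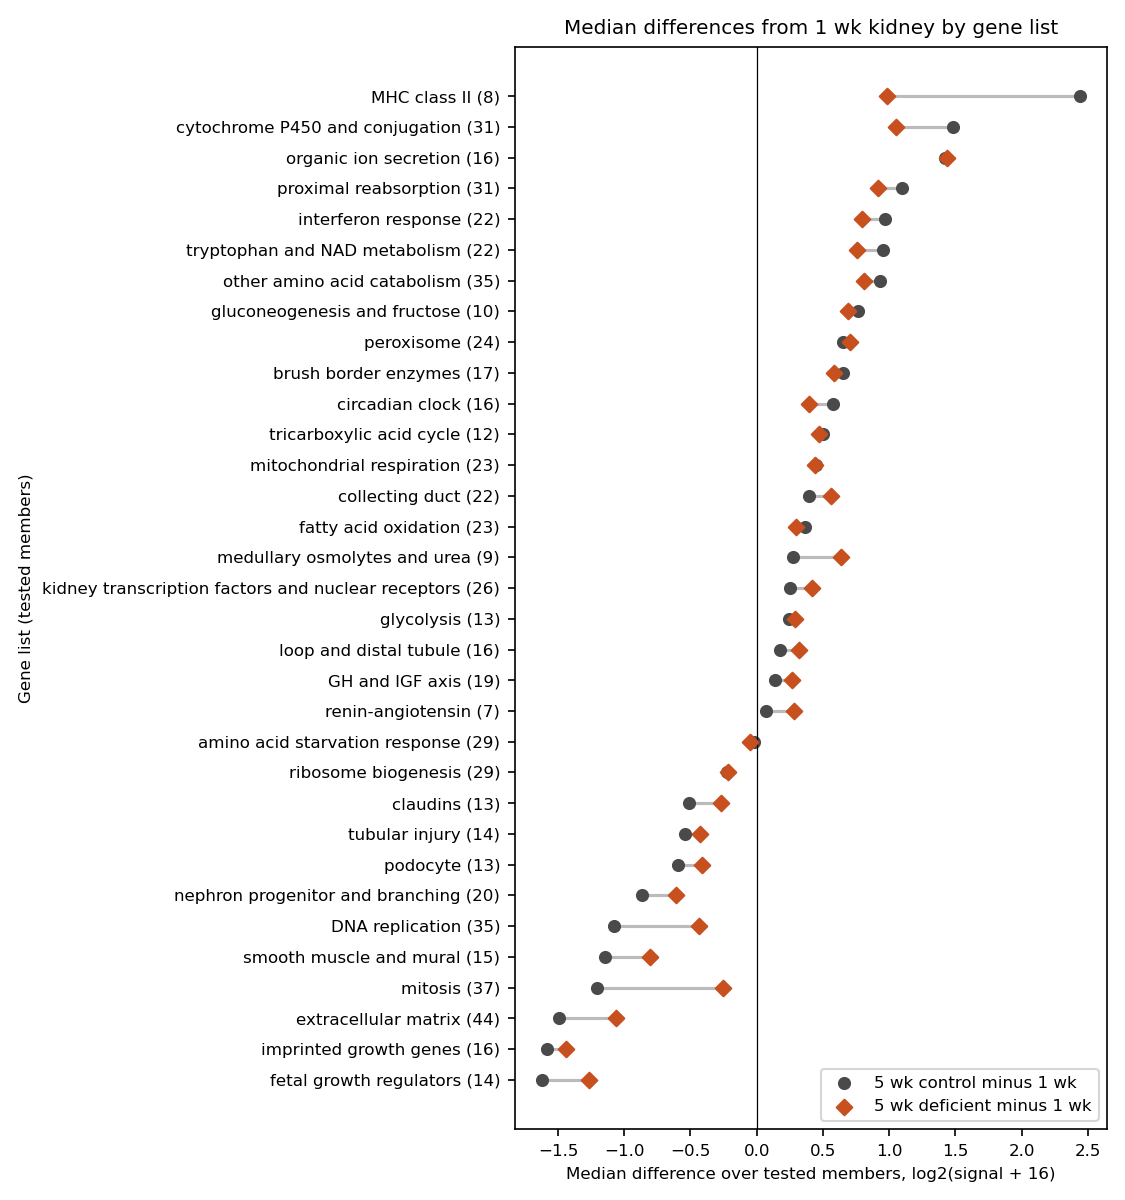
Median difference from 1 wk kidney over the tested members of 33 gene lists on the log2(signal + 16) scale, with the number of tested members in parentheses. Diamonds are deficient minus 1 wk and circles are control minus 1 wk, which share the 1 wk arrays. The symbols lie close together for organic ion secretion (1.43 and 1.42) and mitochondrial respiration (0.44 and 0.45). For mitosis the medians are -0.26 and -1.20 and for MHC class II 0.98 and 2.44. Close symbols do not show that each gene reached control. For organic ion secretion the median of deficient minus control was -0.17.

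The transporters with which the proximal tubule recovers filtered solutes were high in deficient kidney. Of 31 tested genes of proximal reabsorption, 30 rose from 1 wk and none fell, with a median difference of 0.92 against -0.04 over all genes. The control minus 1 wk median was 1.10. Slc34a3, a sodium-phosphate cotransporter, read 1674, 1587, 1562, 1465 and 1384 on the 5 arrays of 1 wk kidney. It read 4640.2, 4254, 4507, 4194 and 4634 in deficient kidney and 5417, 4948, 5698, 5398 and 5366 in control kidney. The 3 groups did not overlap, with every deficient array above 1 wk and below control, and Slc34a3 rose 2.88-fold (1.53 ± 0.06, adjusted p = 1.61e-11). The cystine and basic amino acid carrier Slc7a9 rose 2.19-fold (1.13 ± 0.04). The sodium-proton exchanger Slc9a3 rose 2.78-fold and the basic amino acid exporter subunit Slc7a7 2.78-fold, both to within 0.11 of control. The GABA carrier Slc6a13 rose 5.59-fold, from 142 ± 20.0 (SD) to 868 ± 125. The glucose carrier Slc5a1 was the exception, at 186 ± 39.3 and 189.9 ± 21.7 (0.04 ± 0.15, adjusted p = 0.813). Against control, 8 of the 31 genes were lower in deficient kidney and none was higher, with a median of -0.08.

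Secretion of organic ions by the same cells showed the same rise, with some differences from control. All 16 tested transporters rose from 1 wk, with a median of 1.43 against 1.42 for control minus 1 wk. Against control 3 were lower and 2 higher in deficient kidney, with a median of -0.17. The mean level of the list was 10.15 to 10.55 on the deficient arrays and 10.56 to 10.82 on the control arrays. Slc22a6, the basolateral organic anion transporter that takes up drugs such as penicillins, read 2086, 1986, 2149, 2249.7 and 2188 in 1 wk kidney. It read 5899.7, 6152, 4899, 7679 and 6055 in deficient kidney and 5261, 6919, 6512, 6019 and 5832 in control kidney. The deficient arrays lay 2.84-fold above 1 wk (adjusted p = 4.58e-09) and spanned the control range. The organic cation transporter Slc22a2 rose 3.05-fold but stayed 2.02-fold below control (-1.02 ± 0.10, adjusted p = 1.59e-05). Slc22a7, an organic anion transporter, read 918, 874, 838, 907 and 1005 in deficient kidney, above 704, 398, 569.7, 502 and 637 in control and 114, 148, 199, 149 and 97.8 at 1 wk. It thus rose past its age mates, by 0.70 ± 0.16 (adjusted p = 0.00648). For Slc22a8 another probe set gave the opposite sign, -0.49 against 0.57, so its direction is uncertain.

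Of 17 brush border enzymes and microvillus proteins, 16 rose, with a median of 0.58. The microvillus cadherin Cdhr5 rose 2.34-fold, alkaline phosphatase Alpl 2.35-fold and the dipeptidase Dpep1 3.87-fold. Their differences from control were -0.06, -0.06 and 0.19, and none of the 3 was called. Angiotensin-converting enzyme Ace was the only member of the list that fell (-0.43 ± 0.18, adjusted p = 0.0476). That call was lost when any 1 of the 5 deficient arrays was left out (adjusted p from 0.0561 to 0.0954) and with median centring (adjusted p = 0.241). The 2 probe sets of the aminopeptidase Enpep differed in sign (0.28 and -0.89).

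The later nephron segments changed less evenly. In the loop of Henle and distal tubule, 11 of 16 genes rose and 1 fell, with a median of 0.32, and none of the 16 was called against control by limma (3 had an unadjusted p under 0.05). Egf, which the distal tubule releases into urine, read 2023, 2479, 2443, 2231 and 1977 in 1 wk kidney. It read 11209.5, 10278, 11031, 11877 and 9941 in deficient kidney and 9861, 9536, 10006, 11209 and 10868 in control. Deficient and control arrays overlapped, and both lay far above 1 wk (4.86-fold for deficient, 2.28 ± 0.08). Kallikrein Klk1 rose 7.27-fold, the phosphate and calcium regulator klotho (Kl) 2.58-fold, Umod 1.68-fold and the potassium channel Kcnj1 1.39-fold. The sodium-chloride cotransporter Slc12a3, already abundant at 1 wk, was 3140.4 ± 345 (SD) and 3148 ± 353, a difference with a 95% interval of -0.17 to 0.18.

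Among 22 collecting duct genes 15 rose and 3 fell, with a median of 0.56. Carbonic anhydrase Car2 rose 1.95-fold, the anion exchanger pendrin, Slc26a4, 2.75-fold, and the proton pump subunit Atp6v1g3 1.81-fold. The vasopressin receptor Avpr2 rose 1.52-fold. The developmental transcription factor Gata3 fell 1.77-fold, to the control level. The sodium channel subunit Scnn1g (interval -0.15 to 0.19) and the water channel Aqp4 (-0.13 to 0.29) were not called. Scnn1g was called with its probe sets averaged (0.15, adjusted p = 0.0446) and Aqp4 with median centring (0.25, adjusted p = 0.0364). Of 9 genes for medullary osmolytes and urea 7 rose, among them the inositol carrier Slc5a3 (2.03-fold). The tonicity factor Nfat5 fell 1.97-fold in deficient kidney. Claudins, which set the permeability of the paracellular route, went both ways. Cldn2 and Cldn10, which make cation and anion pores in the nephron, rose 1.66- and 1.81-fold. The endothelial Cldn5 fell 3.26-fold and Cldn11 5.95-fold, and in all 8 of 13 claudins fell (3 with median centring).

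Genes of oxidative metabolism rose. All 23 tested respiratory chain and ATP synthase subunits rose, with a median of 0.44 against 0.45 for control minus 1 wk, and none was called against control by limma (1 had an unadjusted p under 0.05). With quantile normalization 21 of the 23 rose. Ndufs1, the largest subunit of complex I, read 2549, 2816, 2578, 2694 and 2787 in 1 wk kidney, 4939, 4569, 5213, 4896 and 4645 in deficient kidney and 5257, 5206, 4945, 4955 and 5421 in control. The lowest deficient array was above the highest 1 wk array by a wide margin, and the rise was 1.80-fold. All 12 citric acid cycle enzymes rose as well (10 rose and Cs fell with quantile normalization). Their median was 0.47. Of 24 peroxisomal genes 16 rose and 1 fell. The D-amino acid oxidase Dao rose 2.93-fold (1.55 ± 0.06), catalase (Cat) 1.90-fold and the membrane protein Pxmp2 3.01-fold.

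In gluconeogenesis and fructose use 8 of 10 genes rose and 1 fell. Glycerate kinase Glyctk rose 2.27-fold, sorbitol dehydrogenase Sord 2.07-fold and ketohexokinase Khk 2.21-fold. Pck1, the cytosolic enzyme that commits to gluconeogenesis, was already at 12609.7 ± 833 (SD) at 1 wk and rose 1.18-fold, a call lost with quantile normalization (adjusted p = 0.0692), with all 30 arrays fitted (0.569) and without deficient arrays 3 and 4 (0.0536). Its mitochondrial form Pck2 fell by 0.40 ± 0.07, or by 0.22 with median centring. Fatty acid oxidation rose in part, with 12 of 23 genes up and 3 down (10 and 6 with quantile normalization). The medium-chain dehydrogenase Acadm rose 1.74-fold. Pdk4, the kinase that shuts glucose carbon out of the mitochondrion, fell 3.38-fold, from 1917 ± 383 (SD) to 561 ± 140.2, with control at 395 ± 34.8. In glycolysis 9 of 13 genes rose, with a median of 0.29, for instance enolase Eno1 (1.54-fold).

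Among the 8 largest rises was Hnmt, which methylates histamine. It read 21.8, 24.2, 28.4, 30.2 and 45.6 in 1 wk kidney, below the arrays' 40th percentile of 87.0 to 113. It read 2771, 2773, 1824, 2211 and 2681 in deficient kidney and 4043, 3914, 4020.3, 4521 and 4644 in control. No array of 1 group fell within the range of another, and the rise was 5.75 ± 0.13 (adjusted p = 3.68e-13). The difference from control was -0.80 (adjusted p = 7.74e-04). With both of its probe sets averaged, the rise was 3.005 and the difference from control was not called (-0.27, adjusted p = 0.142). The fatty acid hydroxylase Cyp4a8 rose 21.3-fold, from 139.7 ± 44.4 (SD) to 3445 ± 1563, and stayed 2.77-fold below control. Its deficient arrays read 5842, 4135, 2060.3, 2895 and 2291, a wide range. The ketosteroid reductase genes Akr1c1 and AKR1C3l1 rose by 5.64 ± 0.47 and 4.71 ± 0.14, the glucuronosyltransferase Ugt2b35 by 5.17 ± 0.56, the beta-glucosidase Gba3 by 4.18 ± 0.13, and Aspg, an asparaginase, by 4.52 ± 0.19. The trypsin inhibitor gene Spink1l rose by 4.48 ± 0.21. These 8 genes were chosen as the largest rises with no overlap between groups, and members of one enzyme family can share probes.

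Over the whole list of cytochrome P450 and conjugation genes 25 of 31 rose and 2 fell, with a median of 1.05. The control minus 1 wk median was 1.48. Against control 9 were lower and 2 higher in deficient kidney. The glutathione transferase Gsta1 reached 7261 ± 811 (SD) from 1119.7 ± 103, with control at 11540.1 ± 1466. The acetyltransferase Nat8 rose 4.25-fold, the monooxygenase Fmo1 3.70-fold and epoxide hydrolase Ephx1 2.05-fold. Of these 4, Fmo1 alone was not called against control (-0.12 ± 0.09).

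The kidney's own tryptophan enzymes rose in rats that had received the tryptophan-deficient diet. Of 22 tested genes of tryptophan and NAD metabolism 17 rose and 3 fell, with a median of 0.76. The control minus 1 wk median was 0.95. Kynureninase, Kynu, which makes the precursors of NAD from kynurenine, read 363, 421, 469.7, 407 and 347 in 1 wk kidney. It read 1909, 1739, 1772, 1808 and 1956 in deficient kidney and 2388, 2055, 2363, 2283 and 2301 in control, so that each deficient array lay just below the control range and far above 1 wk (4.46-fold). Acmsd, which diverts the pathway away from NAD, read 356, 397, 374, 308 and 334 at 1 wk and 2825, 2404, 3313, 3289.9 and 3341 in deficient kidney. That is a rise of 8.22-fold, and the upper 3 deficient arrays overlap the control arrays at 4655, 3089, 4426, 3118 and 3045. Kynurenine monooxygenase Kmo rose 3.24-fold, the decarboxylase Ddc 3.31-fold and the nicotinate enzyme Naprt 2.16-fold. Against control 7 of the 22 genes were lower and none was higher. Tdo2, the tryptophan dioxygenase of liver, did not pass the filter on low signals.

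Catabolism of the other amino acids rose almost without exception, in 34 of 35 genes. The median was 0.81 and that of control minus 1 wk 0.93. The propionyl-CoA carboxylase subunit Pcca rose 2.21-fold, the tyrosine pathway enzyme Fah 2.51-fold, the leucine pathway enzyme Mccc1 2.10-fold and the glycine cleavage enzyme Gldc 4.78-fold. Against control 8 of the 35 were lower and 2 higher, with a median of -0.08.

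**Figure D2:**
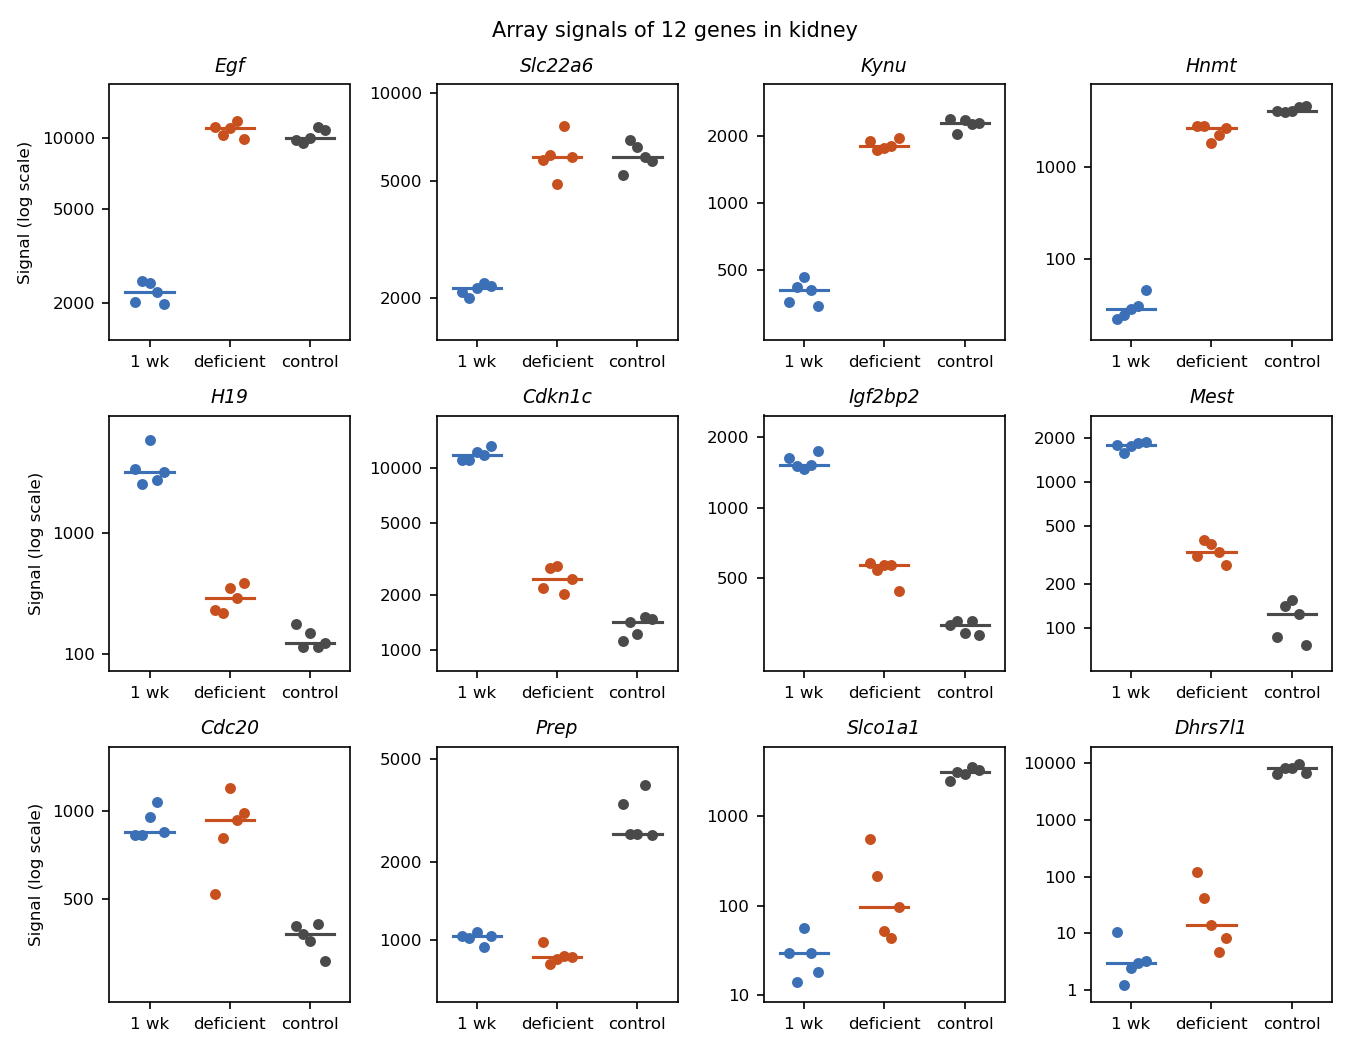
Signal of 12 genes on each of the 15 kidney arrays, on log axes that differ between panels. Points are arrays, horizontal bars are group medians, and the order of groups is 1 wk, deficient and control. In the top row the deficient arrays of Egf and Slc22a6 overlap control. Those of Kynu and Hnmt lie below control and far above 1 wk. In the middle row the deficient arrays lie between the groups. In the bottom row those of Cdc20 and Prep lie at or near 1 wk. Those of Slco1a1 and Dhrs7l1 lie far below control and partly above 1 wk.

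Many transcription factors of the tubule rose. Hnf4a, a main activator of proximal tubule genes, rose 1.92-fold (0.94 ± 0.06) and differed from control by -0.22 ± 0.06 (adjusted p = 0.0192). That second call was lost with all 30 arrays fitted (adjusted p = 0.61), without control array 3 (0.0506) and without deficient array 2 (0.0505), while the difference was -0.42 with its probe sets averaged. The bile acid receptor Nr1h4 rose 2.32-fold, the estrogen-related receptors Esrra and Esrrb 1.77- and 2.28-fold, and the glucocorticoid-responsive Klf9 2.84-fold. In all 15 of 26 listed factors rose and 5 fell. Of 16 circadian clock genes 8 rose, 4 fell and 4 were not called, beside 29.5% risen and 36.2% fallen of all genes. The hour of collection is not given in the labels. Dbp rose 3.24-fold, Nr1d1 3.38-fold and Hlf 3.15-fold, while Nfil3, a repressor of the same elements, fell by 1.32 ± 0.08. None of these 4 was called against control.

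Genes of nephron formation fell. Of 20 tested genes of the nephron progenitor and branching list 14 fell and 3 rose, with a median of -0.61. A gene can pass the filter through the 1 wk arrays alone, so the count favours falls. Those of 28 on the array that were below the filter all overlapped between deficient and 1 wk kidney. The control minus 1 wk median was -0.86. Wnt4, which drives the mesenchyme into tubules, read 842, 822, 790.3, 719.9 and 814 in 1 wk kidney and 108, 118, 82.9, 81.9 and 98.9 in deficient kidney. Control arrays read 68.3, 62.8, 80.7, 54.3 and 52.4, so Wnt4 fell by 2.85 ± 0.10 yet lay above control by 0.52 ± 0.10 (adjusted p = 0.00257). The ureteric tip ligand Wnt11 fell from 193 ± 63.9 (SD) to 4.27 ± 2.48, with control at 4.05 ± 1.02. Both 5 wk groups were below the 40th percentile, and the size of the fall depends on the pseudocount, at -3.32 with 16, -5.26 with 1 and -1.88 with 64. The stem cell receptor Lgr5 fell by 2.09 ± 0.13 and the guidance receptor Robo2 2.77-fold. Etv5, a target of the branching signal, was different. It read 552, 430.4, 428, 418 and 319.9 at 1 wk, 401, 374, 412, 430.0 and 497 in deficient kidney and 891, 459.9, 806, 619 and 724 in control, where it was higher than in deficient kidney by 0.68. The progenitor factor Six2 has no probe set with a gene name here.

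Podocyte genes fell as well, 10 of 13 with none rising (6 fell and 3 rose with median centring). Wt1, a factor of podocytes and their precursors, read 1982, 1579, 1397, 1642 and 1628 at 1 wk, 435, 552, 469.6, 464 and 439 in deficient kidney and 308, 389.7, 388, 284 and 231 in control. All deficient arrays lay above all control arrays and far below 1 wk (3.40-fold fall). Tcf21 fell 3.16-fold and the slit diaphragm gene Nphs1 1.91-fold, and both were higher than in control, by 0.88 ± 0.15 and 0.54 ± 0.10.

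Imprinted growth genes fell, and 6 of the 16 tested remained above control while 2 were called as lower than control. Over all genes tested 14% were higher and 7.77% lower than control. Those of 21 on the array that were below the filter overlapped between deficient and 1 wk kidney. Of 16 tested genes 13 fell and 2 rose, with a median of -1.44 against -1.58 for control minus 1 wk. H19, an imprinted non-coding RNA, read 3349, 2518, 5901, 2740.2 and 3182 in 1 wk kidney. It read 231, 218, 347, 291 and 384 in deficient kidney and 175, 114, 147, 113 and 122 in control. The 3 groups did not overlap. H19 fell 11.2-fold (-3.48 ± 0.21) and lay above control by 1.03 ± 0.21 (adjusted p = 0.00316). The 1 wk array with the highest hepatocyte markers also had the highest H19, and without 1 wk arrays 1 and 3 the fall was -3.21.

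Igf2, the fetal growth factor, read 2223, 2039.9, 2136, 1184 and 1566 at 1 wk, 218, 296, 379.7, 195 and 191 in deficient kidney and 207, 196, 146, 142 and 158 in control. It fell 6.83-fold, and its difference from control missed the threshold (0.52 ± 0.20, adjusted p = 0.0789, or 0.0496 without 1 wk array 4). With its probe sets averaged, Igf2 differed from 1 wk by -0.69 (adjusted p = 7.69e-05) and from control by 0.05. Mest, an imprinted gene of mesenchyme, read 1767, 1574, 1747, 1849 and 1858 at 1 wk and 312, 400.0, 378, 329 and 269 in deficient kidney. With control at 87.4, 141, 156, 125 and 76.9, the fall was 5.06-fold and the distance from control 1.43 ± 0.15. The cell cycle inhibitor Cdkn1c read 11045, 10987, 12190.0, 11739.6 and 13139.7 there. It read 2183, 2806, 2904, 2034 and 2447 in deficient kidney and 1124, 1420.1, 1232, 1514 and 1483 in control, and the groups were again separate. Grb10, an inhibitor of insulin and IGF signalling, fell 2.74-fold and was below control on the chosen probe set (-0.26 ± 0.06, adjusted p = 0.00776), but not with its probe sets averaged (-0.03, adjusted p = 0.781). Phlda2 was one of the 2 that rose (0.37 ± 0.10).

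Fetal growth regulators outside the imprinted group also fell in part. Of 14 tested 11 fell and none rose, with a median of -1.26 against -1.62 for control, and 8 were higher than in control. Those of 17 on the array that were below the filter overlapped between deficient and 1 wk kidney. The RNA-binding protein Igf2bp2 read 1629, 1498, 1464, 1520.4 and 1735 at 1 wk, 579.6, 542, 569, 569 and 443 in deficient kidney and 317, 328, 293, 328 and 285 in control. Each deficient array lay between the ranges of the other groups. Its relative Igf2bp3 fell by 2.52 ± 0.15 and was at the control level (interval -0.23 to 0.42). The transcription factor Mycn fell 1.99-fold. The histone methyltransferase Ezh2 fell 1.85-fold on the chosen probe set, and was not called with its probe sets averaged (-0.19, adjusted p = 0.0844). E2f1, which drives entry into S phase, was not called against 1 wk (-0.08 ± 0.15, adjusted p = 0.658), and it was higher than in control by 0.69 ± 0.15.

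In the growth hormone and IGF axis 8 of 19 genes rose, 2 fell and 9 were not called, beside 29.5% risen and 36.2% fallen of all genes. The growth hormone receptor Ghr rose 2.49-fold, to 713 ± 68.7 (SD) from 276 ± 11.3, and was below control at 999 ± 60.6 (adjusted p = 1.78e-04). The prolactin receptor Prlr rose 2.63-fold and Igfbp2, an IGF carrier of fetal tissue, fell 3.68-fold. Igf1 was not called in either comparison, with 95% intervals of -0.06 to 0.23 against 1 wk and -0.17 to 0.12 against control. It was called as a rise from 1 wk with its probe sets averaged (0.27, adjusted p = 0.00796) and with median centring (0.26). Igfbp3, the main carrier of IGFs in blood, read 1169.9, 1323, 1136, 1103 and 1195 at 1 wk, 1539, 1134, 1019, 1110.2 and 1268 in deficient kidney and 1883, 2564, 2056, 2249 and 1745 in control. Deficient arrays spanned the 1 wk range and lay below all control arrays (-0.78 ± 0.11).

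Genes of the extracellular matrix fell across the list. Of 44 tested 40 fell and 1 rose, with a median of -1.06, and 31 of the 44 were higher than in control, with 2 lower. The control minus 1 wk median was -1.49. Fibrillin 2, Fbn2, a microfibril protein of developing tissue, read 1242, 1158, 1229, 921 and 969 at 1 wk and 54.6 ± 16.5 (SD) in deficient kidney. Control arrays read 8.65, 17.4, 22.8, 34.8 and 22.2, and all 10 of the 5 wk arrays were below the 40th percentile. Fibronectin Fn1 fell 2.46-fold, from 9937 ± 754 (SD) to 4025 ± 264. The laminin chain Lamc1 fell 2.36-fold, and Emilin1 2.98-fold. Col6a2 fell by 1.61 ± 0.07 and versican (Vcan) fell by 2.44 ± 0.11, and the differences were -1.05 and -1.46 with their probe sets averaged. The proteoglycan decorin, Dcn, was not called (interval -0.30 to 0.28).

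All 15 tested genes of smooth muscle and mural cells fell, with a median of -0.81, and 12 of them were higher than in control. Smooth muscle actin Acta2 read 1771, 2014, 2761, 2203 and 2189.7 at 1 wk, 486, 554, 782, 568 and 606 in deficient kidney and 422, 391, 333, 409 and 381 in control. Every deficient array lay between the other groups. The myosin light chain Myl9 fell 2.40-fold and the pericyte proteoglycan Cspg4 2.03-fold. Of 16 endothelial markers 8 fell and 2 rose, beside 36.2% and 29.5% of all genes. The endothelial factor Sox17 fell by 0.97 ± 0.06, or by 0.52 with its probe sets averaged. The VEGF receptor Kdr fell by 0.58 ± 0.07 on the chosen probe set and was not called with its probe sets averaged (-0.32, adjusted p = 0.1). The intervals of Emcn (-0.11 to 0.13) and Eng (-0.13 to 0.14) held 0, and both were called as higher with median centring (0.19 and 0.18). In the renin-angiotensin list the fetal receptor Agtr2 fell by 2.75 ± 0.21, and the median of its 7 tested genes was 0.28, or -0.03 without either 1 wk array 4 or 5.

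**Figure D3:**
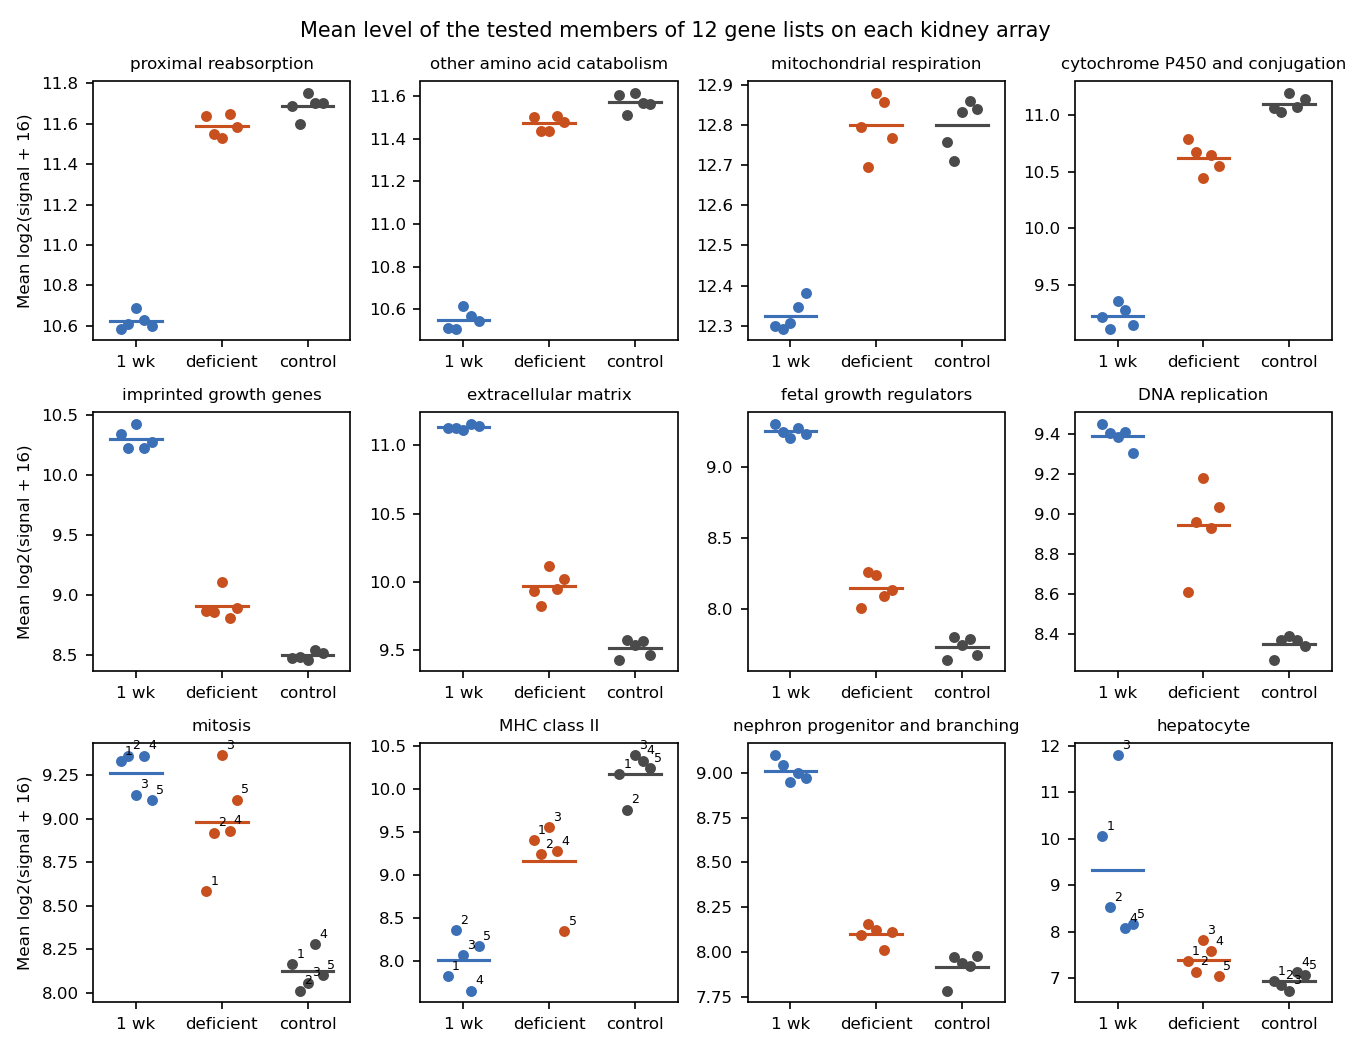
Mean log2(signal + 16) over the tested members of 12 gene lists on each kidney array. Points are arrays, bars are group means, and array numbers are printed for the mitosis, MHC class II and hepatocyte lists. For mitosis the deficient arrays run from 8.58 to 9.37, against 9.11 to 9.36 at 1 wk and 8.01 to 8.28 in control.

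Cell division genes stood closer to the 1 wk than to the control level. Of 37 tested mitosis genes 15 fell from 1 wk, 3 rose and 19 were not called, with a median of -0.26 against -1.20 for control minus 1 wk. Against control 34 of the 37 were higher in deficient kidney and 1 was lower, with a median of 0.86. The number that fell was 8 with median centring, 13 with quantile normalization, and 20 without deficient arrays 3 and 4. It was 21 without deficient array 3 alone. The mean level of the list was 9.33, 9.36, 9.14, 9.36 and 9.11 on the 1 wk arrays, 8.58, 8.92, 9.37, 8.93 and 9.11 on the deficient arrays and 8.16, 8.01, 8.06, 8.28 and 8.10 on the control arrays. Deficient arrays 3 and 5 thus reached the level of the lowest 1 wk array, array 1 was the lowest, and all 5 were above control.

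The proliferation antigen Mki67 read 1322, 1364, 1299, 1464 and 1193 at 1 wk and 716, 1072, 1289, 933 and 1051 in deficient kidney. Control arrays read 421, 405, 425, 477 and 465. Mki67 fell 1.33-fold from 1 wk (adjusted p = 0.00619, not called with median centring) and was 2.23-fold above control. Cdc20, which starts the separation of chromosomes, read 828, 827, 959.5, 1079 and 851 at 1 wk. It read 520.1, 809, 1198, 933 and 984 in deficient kidney and 403, 381, 358, 413 and 308 in control. The deficient arrays enclosed the 1 wk range, with an interval of -0.43 to 0.28, and all lay above control (1.18 ± 0.17). With its probe sets averaged Cdc20 was called as a fall from 1 wk (-0.31) and its difference from control was 0.58. The kinetochore protein Spc25 read 457, 694, 927, 695 and 796 in deficient kidney against 714, 719, 703, 822 and 543 at 1 wk and 354, 328, 319, 419 and 342 in control. Its interval against 1 wk was -0.32 to 0.33.

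Other mitosis genes fell clearly. The spindle motor Kif15 fell 2.36-fold and stayed 1.89-fold above control. The checkpoint kinase Ttk read 515, 412, 285, 496 and 328 at 1 wk, 109, 209, 243, 155 and 169 in deficient kidney and 69.2, 64.3, 87.9, 94.5 and 51.9 in control. It fell by 1.14 ± 0.20, or by 0.60 with its probe sets averaged, and every deficient array lay between the other groups. Kif11, the motor that pushes spindle poles apart, went the other way. It read 777, 893, 798, 995 and 665 at 1 wk, 1329.7, 1232, 1447, 1302 and 1464 in deficient kidney and 1547, 1453, 1411, 1438 and 1366 in control, a rise of 1.64-fold.

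DNA replication genes took a middle course. Of 35 tested 25 fell from 1 wk and none rose (18 fell and 2 rose with median centring), and 28 were higher than in control with none lower. The median was -0.43 against 1 wk and 0.56 against control. The clamp loader Rfc3 fell 1.74-fold, DNA ligase Lig1 1.38-fold (by 0.47 ± 0.06, against -0.30 with median centring) and the maintenance methyltransferase Dnmt1 1.53-fold. The sliding clamp Pcna read 4128, 4843, 5357, 5092 and 4883 in deficient kidney and 4733, 4573, 4841, 4832 and 4707 at 1 wk, ranges that overlapped, while control read 3454, 3376, 3416, 3649 and 3455.

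**Figure D4:**
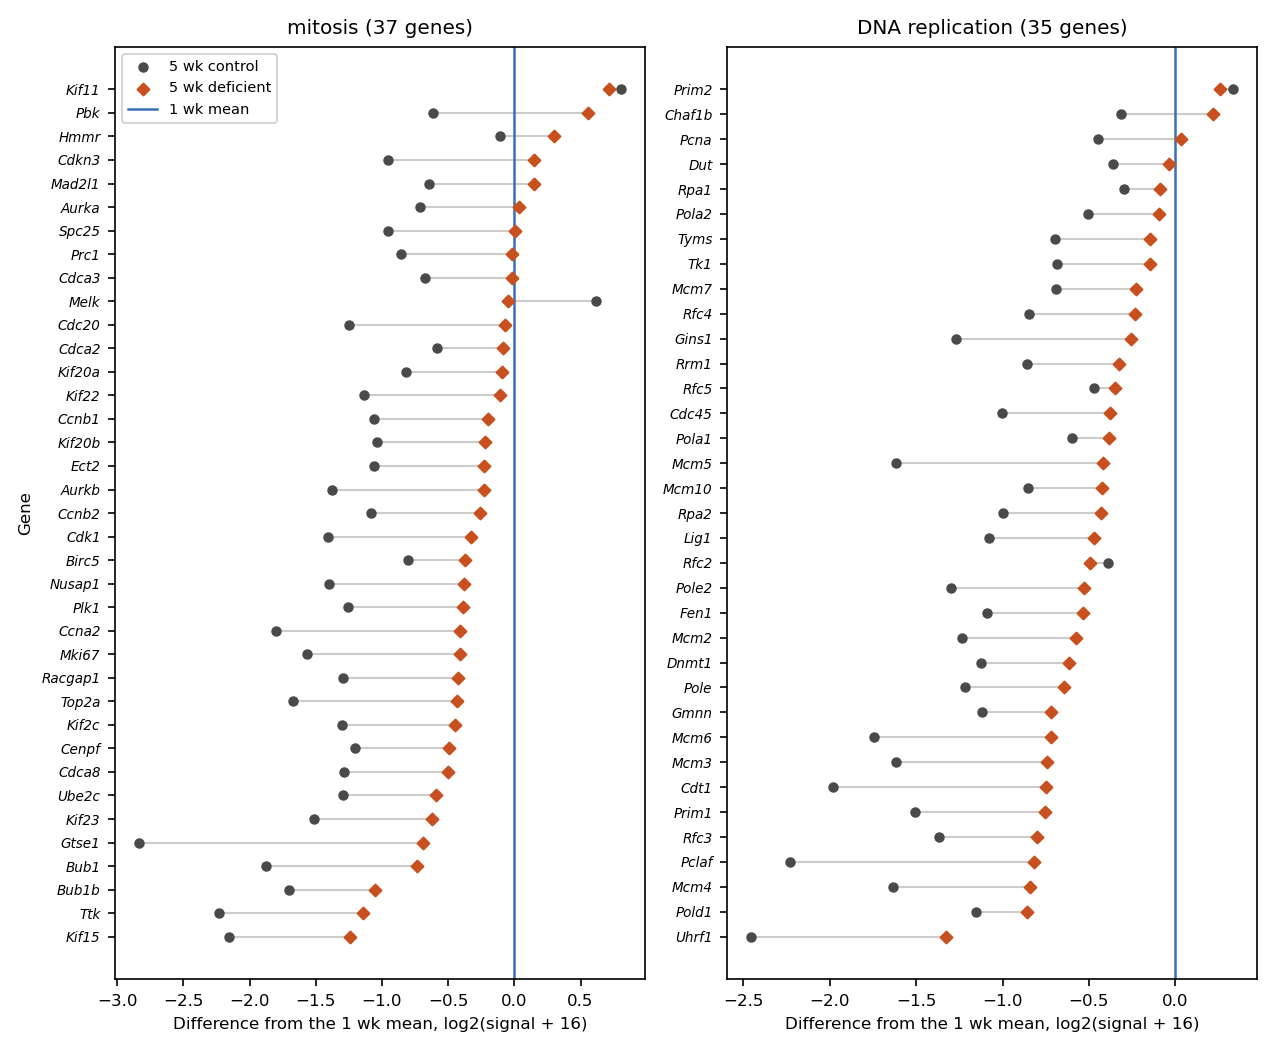
Difference of each tested mitosis gene (left, 37 genes) and DNA replication gene (right, 35 genes) from its 1 wk mean, on the log2(signal + 16) scale. Diamonds are deficient kidney, circles control kidney, and the vertical line is the 1 wk mean. Most diamonds lie between the line and the circle of the same gene, and Kif11 lies to the right of the line in both groups.

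The promoters of these members were read to describe the motifs they hold. RefSeq promoters of build GRCr8, from 250 bases before to 50 bases after each gene's start, were matched for 31 of the 37 mitosis genes and 34 of the 35 replication genes. The CHR motif of late cell cycle genes (TTTGAA or TTTAAA, either strand) was in 29 of the 31 mitosis promoters (93.5%), against 28.3% of all 33469 promoters of this length. CHR and CCAAT together were in 71% of mitosis promoters and 11.3% of all. Among replication promoters CHR was in 14.7%, and an E2F-like motif (TTGGCGC or TTCGCGC, either strand) was in 52.9%, against 3.66% of all. In 29 matched proximal reabsorption promoters the HNF1 motif GTTAAT was in 10.3%, against 7.45% of all. These matches describe letters and no binding was measured. The 2 mitosis promoters with CHR and CCAAT and the smallest adjusted p, those of Kif11 and Ttk, are shown because they carry the same motifs while the genes differ in direction. They lie at chr1:244536617-244536916 (plus strand) and chr8:93634389-93634688 (plus strand) of GRCr8 and are printed 5′ to 3′, with CHR and CCAAT matches on either strand in capitals.
Kif11: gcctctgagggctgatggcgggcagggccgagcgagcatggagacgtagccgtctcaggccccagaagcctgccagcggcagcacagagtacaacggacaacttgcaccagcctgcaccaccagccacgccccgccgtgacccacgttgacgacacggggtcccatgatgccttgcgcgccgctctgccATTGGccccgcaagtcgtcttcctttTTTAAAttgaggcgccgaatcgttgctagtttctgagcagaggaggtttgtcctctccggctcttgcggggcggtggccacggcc
Ttk: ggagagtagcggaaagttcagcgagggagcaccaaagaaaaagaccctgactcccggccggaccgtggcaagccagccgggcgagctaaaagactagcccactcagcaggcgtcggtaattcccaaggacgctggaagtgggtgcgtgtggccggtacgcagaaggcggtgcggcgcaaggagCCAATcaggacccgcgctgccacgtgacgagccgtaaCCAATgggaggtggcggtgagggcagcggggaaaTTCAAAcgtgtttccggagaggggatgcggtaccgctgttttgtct
In Kif11 the capitals mark a CCAAT box read on the other strand and a CHR. In Ttk they mark 2 CCAAT boxes and a CHR read on the other strand.

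MHC class II genes, which present antigen to helper T cells, rose part of the way toward control. Of 8 tested MHC class II genes 6 rose from 1 wk and none fell, and 5 were lower than in control. The median was 0.98 against 1 wk and -1.08 against control. The invariant chain Cd74 read 793, 1120.5, 1003, 817 and 1189 at 1 wk. It read 3981, 2766, 3824, 3507 and 2303 in deficient kidney and 5850.0, 5232, 6937, 6270.4 and 6677 in control, with no overlap between any of the groups. Cd74 rose 3.26-fold and was 1.92-fold below control (adjusted p = 6.14e-04). RT1-Da read 2430.4, 1331, 1996, 1983 and 1467 in deficient kidney, between 425, 714, 619, 404 and 607 and 3495, 4074, 5115, 4691 and 4333 in the other groups. Deficient array 5 was the lowest of its group for the list, at 8.35 against 9.24 to 9.56, and without it all 8 genes rose and the median was 1.66. Macrophage markers rose at the same time, 7 of 10 with 1 falling, and their part in the class II result was not tested. Lysozyme Lyz2 rose 3.68-fold and the complement gene C1qa 1.66-fold, while the scavenger receptor Mrc1 fell 1.73-fold.

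Interferon response genes rose in 16 of 22 cases with 1 falling. Against control 6 of the 22 were lower and none was higher, with a median of -0.27. The factor Irf7 rose 3.32-fold and beta-2 microglobulin B2m 2.09-fold. Both tested neutrophil genes fell, and the others of 6 on the array did not pass the filter on low signals. Of those, S100a8 was lower without overlap (mean 16.7 against 137 at 1 wk). The rest overlapped, with Mmp8 at 33.3 in deficient kidney and 23.1 at 1 wk. The calcium-binding S100a9 fell by 2.53 ± 0.24 and the gelatinase Mmp9 4.97-fold. Of 3 tested T cell genes only Cd4 was called (0.43 ± 0.14, lost without 1 wk arrays 1 and 3), and Cd4 is also made by rat macrophages. Jchain, of plasma cells, rose by 1.34 ± 0.37 (0.89 with its probe sets averaged) from a level below the 40th percentile, and of 3 tested B and plasma cell genes the other 2 fell. Of 4 erythroid genes 1 rose, of 9 adipocyte genes 2 rose and 1 fell, and of 2 skeletal muscle genes 1 rose. Over all genes tested 29.5% rose and 36.2% fell. The skeletal muscle gene, Myh1, differed from 1 wk by 0.83 on the chosen probe set and -0.89 on another, so its direction is uncertain. None of the 11 adrenal genes on the array passed the filter on low signals.

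Some genes that were much higher in control than in 1 wk kidney stood nearer to the 1 wk than to the control level in deficient kidney. Dhrs7l1, a short-chain dehydrogenase, read 10.8, 1.24, 2.47, 3.07 and 3.28 at 1 wk and 121, 42.5, 13.8, 4.63 and 8.18 in deficient kidney, where 4 of 5 arrays were below the 40th percentile. All 5 control arrays were high, at 6339, 8014, 8208, 9588 and 6768. The rise from 1 wk was 1.05 ± 0.39 (adjusted p = 0.0272, not called without 1 wk array 2 or deficient array 2) and the difference from control -7.55 ± 0.39. The organic anion transporter Slco1a1 read 29.5, 14.2, 55.8, 29.9 and 18.1 at 1 wk, 559, 216, 52.0, 43.7 and 97.8 in deficient kidney and 2522, 3162, 3025, 3548 and 3284 in control. It rose by 1.73 ± 0.48 and its difference from control was -4.43 (adjusted p = 3.38e-05). In both genes deficient array 1 was the highest of its group and deficient array 4 the lowest.

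The young-level rule selected 8 named genes that were higher in control. The prolyl peptidase Prep read 1039.8, 1021, 1074, 945 and 1038 at 1 wk, 986, 812, 847, 873 and 860.0 in deficient kidney and 3338, 2571, 2567, 3957 and 2546 in control, and no deficient array reached the lowest control array. Gtpbp4, a GTPase of ribosome assembly, read 680.1, 531, 644, 799 and 494 in deficient kidney against 933, 1058, 566, 508 and 537 at 1 wk and 2649.5, 4943, 3123, 4926 and 2707 in control. The endothelial clotting factor Vwf was 112 ± 16.3 (SD) against 126 ± 28.5 and 400.0 ± 86.3. Rpp25, a subunit of RNase P, was 265 ± 41.6 against 291 ± 32.3 and 661 ± 43.1. Prep was called as a fall from 1 wk with only the arrays compared (adjusted p = 0.00707), with all 30 arrays (0.0419) and without control array 4 (0.0211). The 95% intervals of these 4 genes against 1 wk were -0.45 to 0.01, -0.65 to 0.36, -0.45 to 0.16 and -0.34 to 0.08. The other 4 were Rarres1, Mbl1, Ddit4 and Slc41a2, and Rarres1 was called as a small rise (0.37 ± 0.16, adjusted p = 0.0469, or 0.128 without deficient array 2). With median centring Ddit4 (0.45) and Slc41a2 (0.36) were called too. Mbl1, a lectin of liver, was called against 1 wk without 1 wk array 3 (0.51) and without arrays 1 and 3 (0.61). The 8 selected genes that were lower in control were Ccna2, Cdk1, Cenpk, Aurkb, Shcbp1, Gins1, Ska3 and Cdc20, the 8 of 21 with the largest difference between control and 1 wk. Ccna2 (-0.41 ± 0.17), Shcbp1 (-0.31 ± 0.13) and Ska3 (-0.29 ± 0.11) were called as small falls from 1 wk, and all 3 of these calls were lost with median centring. Cdk1 was called without deficient array 3 (-0.45, adjusted p = 0.0131), as was Cenpk (-0.46, adjusted p = 0.0273), and both were called with all 30 arrays fitted (adjusted p = 0.0246 and 0.0455).

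At the age-mate level were genes of several functions, selected by the size of the difference from 1 wk. Among those that had risen, the glucagon receptor Gcgr was 282 ± 41.7 (SD) against 317 ± 43.2 in control and 14.5 ± 6.46 at 1 wk. The oxidative stress gene Osgin1 rose 8.91-fold, the metalloreductase Steap4 8.57-fold, the organic anion transporter Slco1a6 8.34-fold, acetyl-CoA synthetase Acss2 7.27-fold and the lysine pathway enzyme Aass 7.23-fold. Slco1a6 and Slco1a1 are relatives of one gene family, at 3883 ± 323 and 194 ± 215 in deficient kidney against 4379.6 ± 309 and 3108 ± 380.1 in control. Among those that had fallen, the Wnt effector Lef1 fell 5.93-fold, but without deficient array 4 it was called as higher than control (0.35, adjusted p = 0.00237). The glutathione transferase Gstm5 fell 6.58-fold and the tubulin Tubb2b 5.87-fold. Il13ra2, Shisa3, Cacna1g and Camk1g fell by 2.78 ± 0.14, 2.62 ± 0.17, 2.72 ± 0.16 and 2.60 ± 0.12.

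Among the 8 largest falls was Afp, the fetal plasma protein of liver, at 5717, 2977, 11087, 2645 and 4399.8 in 1 wk kidney and 6.28, 4.17, 5.34, 30.2 and 1.90 in deficient kidney. All deficient arrays were below the 40th percentile, so the size of the fall depends on the pseudocount, at -7.61 with 16, -9.31 with 1 and -6.02 with 64. Alb, its adult counterpart, read 9504, 2873, 17459.8, 1423 and 1691 at 1 wk and 402, 196, 1817, 1382 and 76.1 in deficient kidney. Both were highest on 1 wk array 3, and 9 of the 14 tested hepatocyte markers fell with none rising. A marker can pass the filter through the 1 wk arrays alone, so that count favours falls. Of the 20 on the array, those below the filter overlapped between the groups, except Apoa1, which was lower in deficient kidney. Without 1 wk arrays 1 and 3 the differences were -7.09 for Afp and -2.06 for Alb (limma adjusted p = 0.0491), against -7.61 and -3.16 with all arrays. Without deficient arrays 3 and 4 they were -7.87 and -4.35. The part of the hepatocyte markers in these 2 falls was not tested. The neurofilament genes Nefm and Nefl fell by 4.77 ± 0.16 and 4.05 ± 0.13, and Nefm was even across the 1 wk arrays at 2219, 2489, 2332, 2200.0 and 2177. With Uchl1 (-2.49 ± 0.19), all 3 tested nerve markers fell, of 11 on the array. A gene can pass the filter through the 1 wk arrays alone, so this count favours falls. Of the nerve markers below the filter, Prph and Gap43 were lower in deficient kidney without overlap. Tubb3 was higher without overlap (mean 59.6 against 33.2), and the rest overlapped. The ephrin receptor Epha3, the monooxygenase homolog Moxd1, Armh4 and Tcp11 fell by 3.66 to 3.70, from signals of 526 to 616.

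By a rule that asks for a called difference of at least 1 on the log2 scale in the same direction from both other groups, and no call between those groups, 6 genes were set apart. The rule looks at means, so single arrays can overlap. Slc22a13, a nicotinate and urate transporter, read 608, 949, 861, 955 and 787 in deficient kidney. At 1 wk it read 226, 235, 260.5, 254 and 195 and in control 434, 85.4, 299.6, 171 and 559, so all deficient arrays were above all others (1.75 ± 0.35 and 1.61 ± 0.35). Col17a1, a collagen of epithelial anchoring, was higher by 1.28 ± 0.40 and 1.41 ± 0.40. The second call was lost without control array 3 (1.25, adjusted p = 0.0561) or deficient array 4 (1.26, 0.0529). Smoc1, a matricellular calcium-binding protein, read 79.3, 92.7, 103, 86.7 and 108 in deficient kidney against 210.3, 225, 270.4, 215 and 157 at 1 wk and 182, 234, 182, 220.1 and 251 in control. The urate pathway enzyme Urah was lower, with differences of -1.61 from 1 wk and -2.34 from control. The neuropeptide gene Gal read 62.5, 69.9, 46.9, 52.6 and 56.7 in deficient kidney and varied widely at 1 wk (104, 114, 929.9, 82.1 and 1057). Its call against 1 wk (adjusted p = 0.0484) was lost without any 1 of the 5 deficient arrays, and was 0.114 without 1 wk arrays 1 and 3. Control array 3, at 58.7, lay within the deficient range. Gc, the vitamin D-binding protein of liver, was called against 1 wk (adjusted p = 0.0417) but not without 1 wk array 3 (-0.83, adjusted p = 0.0928) or without any 1 deficient array.

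Genes of the response to amino acid shortage showed no common direction, with 10 of 29 up, 9 down and a median of -0.05 (0.12 with median centring). Over all genes tested 29.5% rose and 36.2% fell. Asparagine synthetase Asns, a main target of the response, fell 1.61-fold from 1 wk and was not called against control (interval 0.01 to 0.32), except without deficient array 2 (0.21, adjusted p = 0.0491). The serine pathway enzymes Psph and Psat1 rose 1.87- and 1.71-fold, and Nupr1, a stress-induced cofactor, rose 3.38-fold. Of 29 ribosome biogenesis genes 16 fell and none rose (8 fell with median centring), for instance Nop58 (1.59-fold). Markers of tubular injury went both ways, with 3 of 14 up and 6 down, beside 29.5% and 36.2% of all genes. Against control 5 of the 14 were higher and 2 lower, the furthest at -3.00. Havcr1, another member, did not pass the filter on low signals. It was 103 ± 28.5 (SD) in deficient kidney, 47.4 ± 11.9 at 1 wk and 71.5 ± 12.5 in control. Vimentin Vim fell 2.52-fold, the lipocalin Lcn2 was not called (0.23 ± 0.22), and the small heat shock protein Cryab rose 2.70-fold.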

How the data were processed

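RNA of whole kidney was extracted with TRIzol and RNeasy columns and 2 ug was labelled with biotin, per the labels' protocols. The authors deposited 1 signal intensity per probe set on a linear scale. MAS5 is the tool named in the submitters' processing notes, without a version. They were already scaled, with a 2% trimmed mean of 500.1 to 500.2 on every array. Arrays have no read depth, and precision is limited by how many there are.

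Of 31042 probe sets other than controls, 20826 had 1 gene symbol in the platform annotation, 436 had several and 9780 had none. One probe set was kept for each of 14217 genes, and 10910 genes over an array's 40th percentile on at least 5 of 15 kidney arrays were tested. Values were analysed as log2(signal + 16) with limma 3.58.1 in R 4.3.3, fitted to the 15 kidney arrays, with Benjamini-Hochberg adjustment at 0.05. On simulated data the fit recovered 32%, 80%, 98% and 100% of changes of 0.25, 0.5, 1 and 2 log2 for deficient minus 1 wk, and 6.06% of its calls were unchanged genes. The simulation used normal noise and changed only a small share of genes, while 65.6% were called in the real comparison. These rates therefore need not hold for the real data.

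The members and gene lists were chosen with earlier results of these data known. Named genes are the 8 largest rises and falls without overlap, up to 8 young-level and 8 age-mate-level genes in each direction, up to 5 genes in each direction that stood apart from both groups, for each list up to 5 members with the smallest and 3 with the largest adjusted p, and a panel of marker genes. Alternatives were other pseudocounts, filters, scalings, probe set choices, fits and left-out arrays. Leaving out 1 wk arrays 1 and 3, or deficient arrays 3 and 4, was chosen after seeing the data. Replicate numbers did not pair the arrays: deviations of same-numbered arrays correlated at -0.076 to 0.0648, none over 0.1.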

Additional observations from a re-analysis of the deposited data

Results flagged for a closer look

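Among 79 named genes, 237 groups of 5 arrays were examined for an array far from the other 4, and 19 passed Dixon's 95% critical value of 0.71. Chance flags about 5% of such groups.

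In deficient kidney, array 4 was high for Afp, at 30.2 against 1.90 to 6.28, and for Tcp11, at 71.8 against 22.1 to 30.2. The same array was low for Lef1, at 60.9 against 115 to 139. Array 5 was low for Tubb2b, at 479 against 541 to 568, for Gc, at 81.0 against 136 to 161, and for Igf2bp2, at 443 against 542 to 579.6.

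In 1 wk kidney, array 1 was high for Mycn, at 340.1 against 254 to 269.6, and for Dhrs7l1, at 10.8 against 1.24 to 3.28. Array 5 was high for Vwf, at 177 against 109.7 to 118.

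In control kidney, array 2 was low for AKR1C3l1, at 7204 against 8806 to 8947, for Cyp4a8, at 7433.5 against 8944.5 to 9584, for Ddit4, at 698 against 1145 to 1302, and for Cdk1, at 467 against 560 to 594. It was high for Mycn, at 117 against 54.2 to 66.3. Array 4 was high for Akr1c1, at 5669 against 2105 to 2452, and for Slc41a2, at 198 against 144 to 152, and low for Aurkb, at 86.9 against 148 to 176. Array 3 was low for Gal, at 58.7 against 691 to 1440.0, and array 5 was low for Mbl1, at 214 against 288 to 317.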

How the results depend on the processing

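In all 885 results were recomputed under 29 settings. The shift with median centring follows from its definition, and the cause of each other change below was not tested. Values are deficient minus 1 wk medians of gene lists on the log2 scale unless stated. Median centring subtracts 1 constant from each array, so it added the same amount to every gene and every list median. The values that follow are thus 1 shift and not separate observations: proximal reabsorption 1.09, organic ion secretion 1.61, brush border 0.76, loop and distal tubule 0.49, collecting duct 0.73, medullary osmolytes 0.81, claudins -0.0945, gluconeogenesis 0.87, fatty acid oxidation 0.47, peroxisome 0.87, mitochondrial respiration 0.62, citric acid cycle 0.64, glycolysis 0.46, cytochrome P450 and conjugation 1.22, tryptophan and NAD 0.93, other amino acid catabolism 0.98, transcription factors 0.59, nephron progenitor -0.43, podocyte -0.24, imprinted -1.27, DNA replication -0.26, fetal growth regulators -1.09, growth hormone and IGF 0.44, extracellular matrix -0.89, smooth muscle -0.63, renin-angiotensin 0.46, ribosome biogenesis -0.0443, circadian clock 0.57, tubular injury -0.25 and interferon 0.96. The amino acid starvation list turned sign, to 0.12. With it 2496 genes fell from 1 wk, 734 were higher and 1784 lower than control, 36 of them higher by at least 2-fold. In control minus 1 wk 5365 rose and 2684 fell, 1189 and 640 by at least 2-fold. Col4a5 (0.16), Decr1 (0.15), Hibch (0.0297), Irx3 (0.14), Nars1 (0.15), Pou3f3 (0.14) and Vegfa (0.16) turned sign.

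Quantile normalization gave proximal reabsorption 0.82, organic ion secretion 1.29, brush border 0.43, collecting duct 0.46, medullary osmolytes 0.47, gluconeogenesis 0.55, fatty acid oxidation 0.0742, mitochondrial respiration 0.29, citric acid cycle 0.30, glycolysis 0.15, other amino acid catabolism 0.85, transcription factors 0.495, nephron progenitor -0.54, imprinted -1.36, fetal growth regulators -1.12, smooth muscle -0.98, renin-angiotensin 0.10, ribosome biogenesis -0.13, amino acid starvation 0.0119 and circadian clock 0.50. With it 40 genes were at least 2-fold higher than control, and Acadl (-0.16), Ccnd1 (-0.15), Cs (-0.11) and Pcna (-0.18) turned sign. With all probe sets of a gene averaged the medians were gluconeogenesis 0.49, peroxisome 0.61, nephron progenitor -0.68, podocyte -0.50, imprinted -1.055, fetal growth regulators -1.08 and renin-angiotensin -0.0785, and Enpep turned sign against 1 wk (-0.30) and control (0.0713). The filter at the 60th percentile gave transcription factors 0.26, imprinted -1.72, fetal growth regulators -1.36 and circadian clock 0.59. A pseudocount of 1 gave fetal growth regulators -1.37. A pseudocount of 64 gave organic ion secretion 1.08, transcription factors 0.36, imprinted -1.23, fetal growth regulators -0.95, growth hormone and IGF 0.19, renin-angiotensin 0.0402 and interferon 0.61, with 22 genes at least 2-fold higher than control.

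Without 1 wk arrays 1 and 3 the growth hormone and IGF median was 0.16 and Apoh turned sign (0.67). Without deficient arrays 3 and 4 the medians were medullary osmolytes 0.54, glycolysis 0.21, transcription factors 0.51, ribosome biogenesis -0.27, circadian clock 0.48 and tubular injury -0.58. Leaving out 1 array at a time, genes at least 2-fold higher than control numbered 40 (without deficient array 3) to 77. The ranges were growth hormone and IGF 0.17 to 0.31, MHC class II 0.73 to 1.66, circadian clock 0.34 to 0.46, collecting duct 0.51 to 0.58, extracellular matrix -1.12 to -0.99, fatty acid oxidation 0.23 to 0.32, medullary osmolytes 0.57 to 0.73, organic ion secretion 1.32 to 1.49, peroxisome 0.60 to 0.71, podocyte -0.49 to -0.39, renin-angiotensin -0.0343 to 0.31, smooth muscle -0.88 to -0.78 and tubular injury -0.49 to -0.27. The called genes numbered 6891 to 7162 against 1 wk. With the replicate block 7088 genes were called against 1 wk, 2133 between deficient and control and 7791 between control and 1 wk, and 30 of 738 single-gene results changed their call. Signals below the arrays' 40th percentile limit what can be said of levels there.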
